A study of Homo sapiens with 204 samples.

Results

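Smooth muscle actin (ACTA2), 3 proteins that bind actin or drive its contraction (TAGLN, CNN2 and the myosin light chain MYL9) and the 4 tropomyosins (TPM1, TPM2, TPM3 and TPM4) were followed across knockdowns of ribosomal proteins in A549, an established line from a lung adenocarcinoma that keeps functional p53. They are 8 of the 41379 genes in the RNA-seq table and of the 19217 in the Ribo-seq table, and all 8 have a row in both. The genes were selected on their counts in knockdown cells relative to control cells, ACTA2 because its level followed the p53 response over the targets and TPM4 because it was higher by a similar amount in each. Every knockdown-to-control value of these 8 genes is therefore given as a description, with no test.

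The cells were transfected for 24 h with 40 nM of siRNA against 1 of 75 ribosomal proteins (44 of the large and 31 of the small subunit) or with non-targeting siRNA as control, and all knockdowns share the same 11 control libraries per assay. Ribo-seq sequences the mRNA fragments that ribosomes shield from nuclease, and RNA-seq of the same lysates measures mRNA amounts. Of the targets, 16 have 2 libraries and 59 have 1, which gives 91 knockdown libraries per assay. All come from 1 cell line, and the labels do not say whether libraries of 1 target came from separate cultures. The p-values of knockdowns against controls rest on spread between libraries, which includes differences between targets, and count both libraries of a target separately. Those between subunits rest on spread between targets, with counts summed per target. Part of either spread may be technical.

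Actin polymerizes into filaments, and tropomyosins are coiled-coil dimers that lie along the filament and govern which myosins and other proteins reach it. ACTA2 and TAGLN are known as markers of smooth muscle and of contractile fibroblasts, while TPM3, TPM4 and CNN2 are found in many cell types. Many genes of this system are driven by serum response factor (SRF), which binds the CArG box, together with its coactivators of the myocardin family. ACTA2 has also been described as a gene that p53 can induce, and loss of ribosomal proteins is known to stabilize p53 through free ribosomal proteins that bind MDM2.

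Totals ran from 18.8 to 63.6 M counts per library in RNA-seq (median 27.8) and from 7.77 to 57.2 M in Ribo-seq (median 23.8). Levels are given as CPM, in which counts are divided by the normalized size of their library. Titles form 2 sets, 38 libraries with a sample or replicate number (6 controls and 16 targets) and 64 without (5 controls and 59 targets), and the set was a term in each fit. Control 20_2 stood apart in RNA-seq. Over 10117 genes the SD of its log2 ratio to the other controls of its set was 0.957, against 0.175 to 0.577 for the other 10 controls, and in Ribo-seq it was 0.221. Of 6 smooth muscle markers, MYH11, DES, CNN1 and LMOD1 stayed under 1 CPM in every RNA-seq library. Of 7 fibroblast markers 5 did so, and all 4 endothelial markers. The 10 markers of A549 and lung epithelium summed to between 6360 and 11902 CPM in controls. Within that sum the keratins KRT8 and KRT18 had control medians of 1122 and 1074 CPM, while EPCAM and MUC1 were at 1.06 and 1.13 CPM. SYNPO2 (9.17 CPM), MYOCD (1.67 CPM) and the collagen gene COL1A1 (22.5 CPM), from the smooth muscle and fibroblast lists, were detected in controls. The name smooth muscle actin is used only as the gene's name.

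RefSeq promoter windows (250 bases before to 50 after a start, GRCh38.p14) were at hand for 6 of the 8 genes, 11 windows in all. They were searched on both strands for the CArG box, for the CArG box with 1 end base of its A/T core changed, and for the p53 half-site and full site. Of 35116 windows of the same length, 1.29% hold a CArG box, 2.98% a CArG box or its 1-base variant, 6.63% a p53 half-site and 0.0285% a p53 full site. A match of the first kinds was found in 3 windows, whose 250 bases upstream of the start are shown 5′ to 3′ because 2 of them belong to the genes that differ most from control. Capitals mark the 10 bases of the match. The ACTA2 stretch is the minus strand of chr10:88952774-88953023, at the gene's inner start, with the variant at 121 to 112 bases before it. The TPM4 stretch is the plus strand of chr19:16067288-16067537, with a CArG box 173 to 164 bases before the start. The CNN2 stretch is the plus strand of chr19:1026358-1026607, with a CArG box 89 to 80 bases before the start.
ACTA2: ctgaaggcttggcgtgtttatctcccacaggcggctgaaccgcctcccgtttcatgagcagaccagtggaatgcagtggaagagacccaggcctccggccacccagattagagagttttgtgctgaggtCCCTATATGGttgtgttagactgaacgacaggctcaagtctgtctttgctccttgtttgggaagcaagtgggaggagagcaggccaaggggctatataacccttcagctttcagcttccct
TPM4: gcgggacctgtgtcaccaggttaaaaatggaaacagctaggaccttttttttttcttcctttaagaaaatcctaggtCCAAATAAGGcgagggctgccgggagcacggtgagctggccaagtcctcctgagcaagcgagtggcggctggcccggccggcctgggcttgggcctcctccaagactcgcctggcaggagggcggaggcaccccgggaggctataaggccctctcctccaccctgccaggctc
CNN2: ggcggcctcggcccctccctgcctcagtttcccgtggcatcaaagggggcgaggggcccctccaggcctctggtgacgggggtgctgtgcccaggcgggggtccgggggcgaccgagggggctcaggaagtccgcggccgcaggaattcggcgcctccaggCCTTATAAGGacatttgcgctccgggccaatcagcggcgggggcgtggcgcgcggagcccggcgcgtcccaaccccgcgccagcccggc

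The outer start of ACTA2 has p53 half-sites that begin 219 bases before and 19 bases after it, in the window chr10:88991288-88991587, and 1 window of TPM3 has a half-site. The second ACTA2 site covers the same bases as a half-site in a window of the gene FAS (chr10:88991181-88991480), with its first base at -122 from that start. The gene ACTA2 (ENSG00000107796) lies at chr10:88935074-88991337 and TPM4 (ENSG00000167460) at chr19:16067538-16103002 in GRCh38.p14. No window of the 8 genes holds a p53 full site. These matches describe letters in the windows and were not set against binding data. ACTA2 overlaps FAS, the death receptor gene induced by p53, over 27288 bases of chromosome 10. Whether reads were counted by strand is not given in the sources used here, so reads of the shared stretch cannot be told apart, and ACTA2 also has near-identical actin paralogs.

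ACTA2 mRNA was several times the control level under most knockdowns. In RNA-seq the 11 controls ran from 4.34 CPM to 8.82 CPM with a median of 6.75 CPM, and the 91 knockdown libraries from 5.27 to 88.5 CPM with a median of 31.8 CPM. Of the knockdown libraries 86 lay above every control. The 5 that overlapped the controls were those of RPL11, RPL22, RPL26, RPLP2 and RPS27L, named after their values were seen. The fitted log2 fold change was 2.30 ± 0.33 (SE, 91 against 11 libraries), or 2.36 ± 0.35 without control 20_2. Within the numbered and unnumbered titles alone it was 2.16 ± 0.42 and 2.49 ± 0.51.

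Footprints on ACTA2 showed the same range of responses. Controls ran from 8.72 to 16.6 CPM (median 13.2 CPM) and knockdowns from 11.2 to 144 CPM (median 46.6 CPM), again with 86 of 91 libraries above every control. The log2 fold change was 2.01 ± 0.29. The 5 overlapping libraries were both of RPL29 and those of RPL11, RPLP2 and RPS27L.

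**Figure D1:**
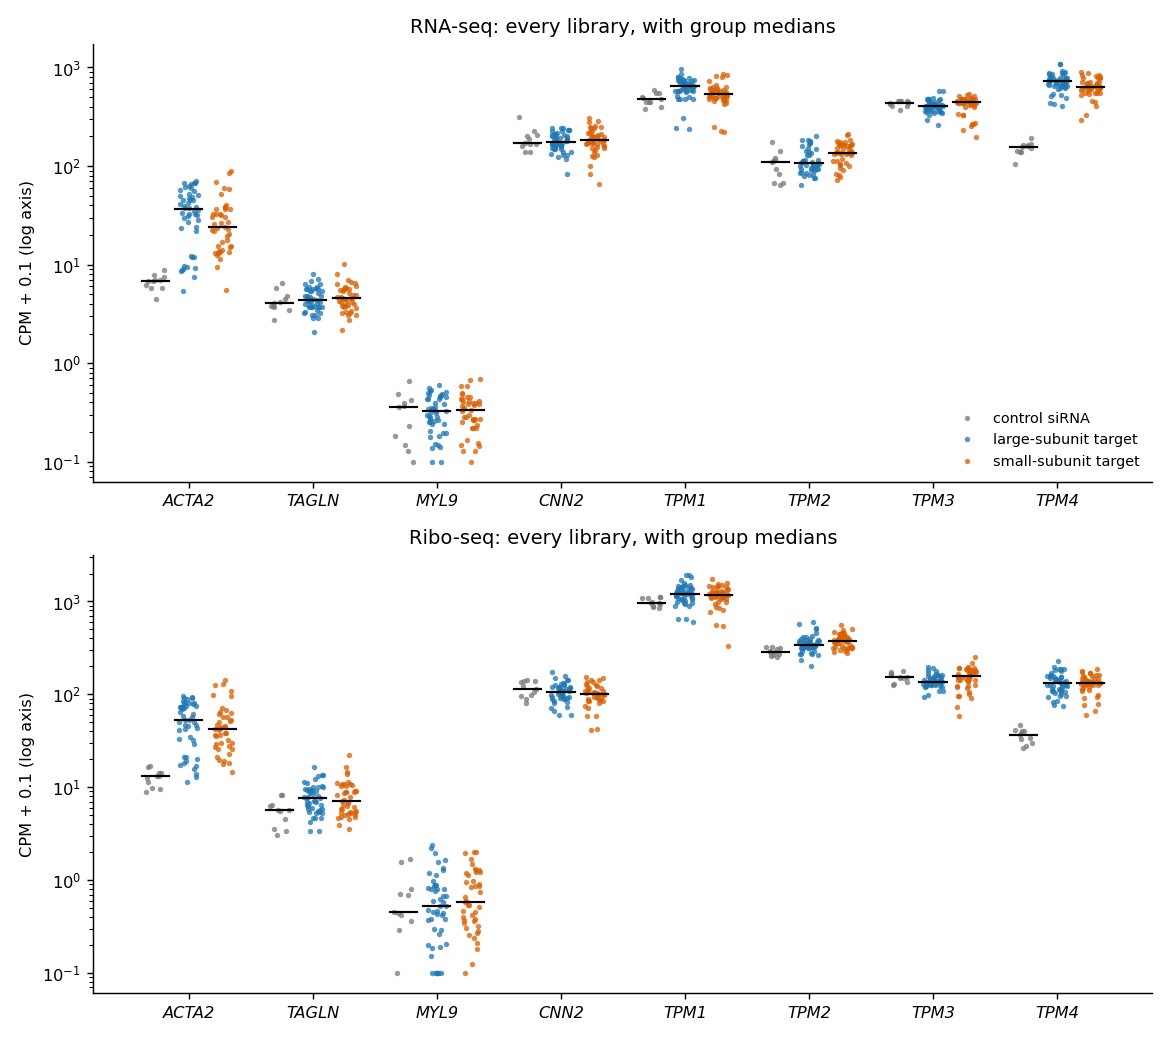
CPM of the 8 genes in every RNA-seq (top) and Ribo-seq (bottom) library, with 0.1 added and a log axis; points are libraries of control siRNA (grey), large-subunit targets (blue) and small-subunit targets (orange), and black lines are group medians. All 91 knockdown libraries lie above all 11 controls for TPM4 in both panels, 86 of 91 do for ACTA2, and the other genes overlap their controls.

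FAS, which shares part of its locus with ACTA2, also had a wide range over knockdowns. It rose by 1.16 ± 0.25 in RNA-seq (adjusted p = 0.000188, edgeR quasi-likelihood test) and by 1.25 ± 0.24 in Ribo-seq (adjusted p = 2.92e-05). FAS ran from 4.31 to 17.3 CPM in RNA-seq controls and from 4.37 to 84.4 CPM in knockdowns, with 67 of 91 libraries above every control. The lowest control was 20_2, which stood apart in RNA-seq, and the next was 20_1 at 6.69 CPM. The part of FAS in the ACTA2 counts was not tested. The other neighbour measured, STAMBPL1, stood at 0.14 ± 0.14 in RNA-seq (adjusted p = 0.474).

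TAGLN (transgelin), an actin-binding protein of the calponin family, was close to its control level in RNA-seq. Controls ran from 2.62 to 6.34 CPM (median 3.99 CPM) and knockdowns from 1.97 to 9.98 CPM (median 4.40 CPM), with 81 of 91 libraries inside the control range. The log2 fold change was 0.16 ± 0.13 in RNA-seq and 0.56 ± 0.19 in Ribo-seq. Footprint levels of 39 of 91 knockdown libraries lay above all controls, whose highest was 8.15 CPM, and none lay below.

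CNN2 (calponin 2), which binds actin in non-muscle cells, was near control on average and low under a few targets. Its log2 fold change was 0.0019 ± 0.11 in RNA-seq and -0.11 ± 0.11 in Ribo-seq, and 0.093 ± 0.114 in RNA-seq without control 20_2, which held the highest control level (317 CPM against a median of 169.8 CPM). The lowest ratios were those of RPS4Y1 and RPS4X, which encode paralogs of 1 small-subunit protein. They were -1.24 and -0.92 in RNA-seq and -1.31 and -1.24 in Ribo-seq on the log2 scale, each from 1 library per assay.

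MYL9, the regulatory light chain of smooth muscle myosin, was hardly expressed. RNA-seq libraries held 0 to 12 counts in controls and 0 to 21 in knockdowns, which left the gene out of the RNA-seq fit. Ribo-seq controls ran from 0 to 1.58 CPM and knockdowns from 0 to 2.30 CPM, with a log2 fold change of 0.073 ± 0.445. The shallowest Ribo-seq library allows up to 0.407 CPM behind a count of 0 (3 counts, counting error only), so differences of this size were not detectable at this depth.

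TPM4, a tropomyosin of non-muscle cells, was the member whose knockdown and control libraries did not overlap. RNA-seq controls ran from 105 to 190.4 CPM (median 155 CPM) and knockdowns from 293 CPM (RPS23) to 1087 CPM (RPL18), with a median of 680.5 CPM. Ribo-seq controls ran from 26.6 to 47.2 CPM (median 36.1 CPM) and knockdowns from 59.5 to 229 CPM (median 133 CPM). The lowest knockdown library was above the highest control in both assays. The log2 fold changes were 2.14 ± 0.12 and 1.89 ± 0.13, and 2.11 ± 0.12 and 1.88 ± 0.14 without control 20_2.

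In RNA-seq 4 genes, or 0.0258% of 15526, had every knockdown library above every control library, and in Ribo-seq 8 genes did, or 0.0625% of 12793. No gene had every knockdown library below every control. Only TPM4, HSDL2 and HABP4 did so in both assays, and TPM4 was selected on this contrast, so its place among them is no test. HSDL2, an enzyme of the short-chain dehydrogenase family, had mean log2 ratios to control of 1.67 in RNA-seq and 1.57 in Ribo-seq. HABP4, an RNA-binding protein that associates with ribosomes, had 1.45 and 1.94. Because all knockdowns share the non-targeting siRNA as reference, a lower level under the control siRNA and a higher level under every knockdown cannot be told apart here. TPM4's neighbours CYP4F11 and RAB8A stood at -0.59 ± 0.17 (adjusted p = 0.00498) and -0.20 ± 0.09 (adjusted p = 0.0603) in RNA-seq. Both fell in Ribo-seq, by 0.45 ± 0.17 (adjusted p = 0.0386) and 0.26 ± 0.09 (adjusted p = 0.0167).

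The other tropomyosins lay closer to control on average. TPM1, expressed in both muscle and non-muscle cells, ran from 377 to 597 CPM in RNA-seq controls (median 484 CPM) and from 222 to 975 CPM in knockdowns (median 584 CPM). Its log2 fold change was 0.24 ± 0.12 in RNA-seq and 0.29 ± 0.12 in Ribo-seq. TPM2, which is enriched in muscle and in contractile fibroblasts, stood at 0.40 ± 0.11 and 0.39 ± 0.08. In RNA-seq it was 0.48 ± 0.11 without control 20_2, and 0.27 ± 0.13 and 0.57 ± 0.17 within the numbered and unnumbered titles. The ratio of TPM2 to control was over 1 on the log2 scale for 7 of 75 targets in RNA-seq. Its controls differed between runs of columns in the table, at 6.23 log2 CPM in run 2 and 6.88 in run 3. Unnumbered targets of both runs were set against the unnumbered controls, all of run 2, so ratios of run 3 targets may be too high. In Ribo-seq 64 of the 91 knockdown libraries lay above all controls for TPM2, and 8 did in RNA-seq. TPM3, widely expressed, stood at -0.037 ± 0.082 and -0.014 ± 0.088, with 24 libraries above and 20 below all controls in RNA-seq. Some reads of TPM3 and TPM4 are uncertain because both have processed pseudogenes.

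**Figure D2:**
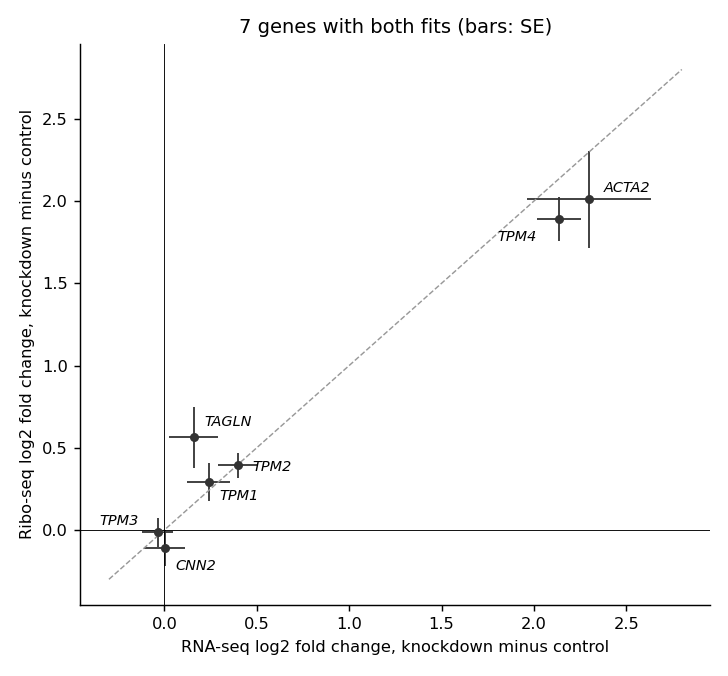
Fitted log2 fold change (knockdown minus control) in RNA-seq (x axis) and Ribo-seq (y axis) for the 7 genes fitted in both assays, with SE bars; the dashed line marks equal values. ACTA2 (2.30 and 2.01) and TPM4 (2.14 and 1.89) lie apart from the other 5, which lie between -0.11 and 0.56.

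Single targets moved the tropomyosins further than the average did. TPM1 was lowest in RNA-seq for RPS27L (log2 ratio to control -1.17), RPS12 (-0.95), RPL15 (-0.93) and RPL26 (-0.71), and the same 4 targets were lowest in Ribo-seq (-1.49, -0.92, -0.68 and -0.63). RPS12 and RPL15 have 2 libraries each, at -0.89 and -1.01 for RPS12 and -0.91 and -0.95 for RPL15 in RNA-seq. TPM3 was lowest for RPS25 (-1.06 in RNA-seq, -1.27 in Ribo-seq) and RPS23 (-0.81 and -0.96), then for RPS9 (-0.77) and RPS7 (-0.73) in RNA-seq. RPS23 was also the lowest target for TPM4 in both assays, at 0.82 and 0.91. TPM4 was highest for RPL18 (2.70) and RPL22 (2.69) in RNA-seq and for RPLP1 (2.85) in Ribo-seq.

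ACTA2 spread widely over the targets and TPM4 did not. Relative to controls of the same title set, ACTA2 ran over the 75 targets from -0.16 (RPLP2) to 3.52 on the log2 scale in RNA-seq, with a median of 2.31. TPM4 ran from 0.82 (RPS23) to 2.70 (RPL18), with a median of 2.08, and 73 of 75 targets were over 1. The SD over targets after centring on the title set was 0.962 for ACTA2, and 99.9% of the 15526 genes had a lower one. For TPM4 it was 0.332, close to the median of 0.306 over all genes, and 60.9% had a lower one. In Ribo-seq the SDs were 0.854 and 0.371 against a median of 0.406.

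**Figure D3:**
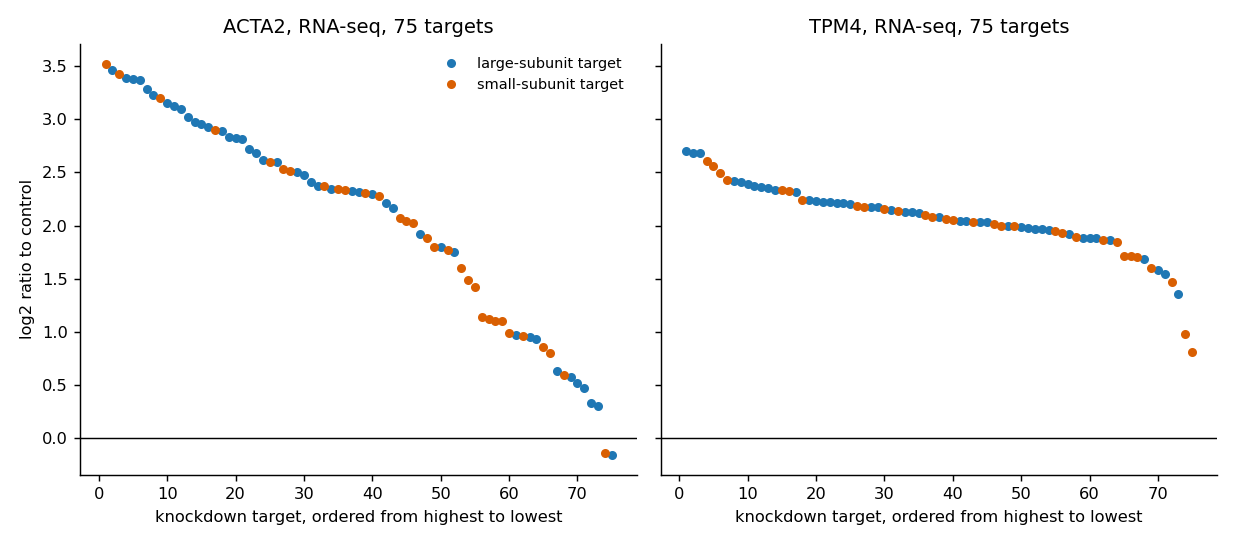
Log2 ratio to control of ACTA2 (left) and TPM4 (right) in RNA-seq for the 75 targets, each panel ordered from its highest to its lowest target; blue points are large-subunit and orange points small-subunit targets, and the line marks the control level. ACTA2 falls along the order from 3.52 to -0.16, while TPM4 stays between 2.70 and 0.82.

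The 16 repeated targets show how well these ratios are resolved. The SD between the 2 libraries of a target was 0.102 for ACTA2 in RNA-seq, against 0.886 between the means of the 16 targets, and 0.0779 against 0.325 for TPM4. In Ribo-seq the pairs were 0.11 against 0.868 for ACTA2 and 0.0999 against 0.325 for TPM4. The largest difference between the libraries of 1 target was 0.323 for ACTA2 and 0.235 for TPM4 in RNA-seq. Neighbours in the order of targets mostly differ by less than this spread, as RPL30 (3.46) and RPS18 (3.42) do for ACTA2. For MYL9 in RNA-seq the SD within targets (0.253) was above that between them (0.168).

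**Figure D4:**
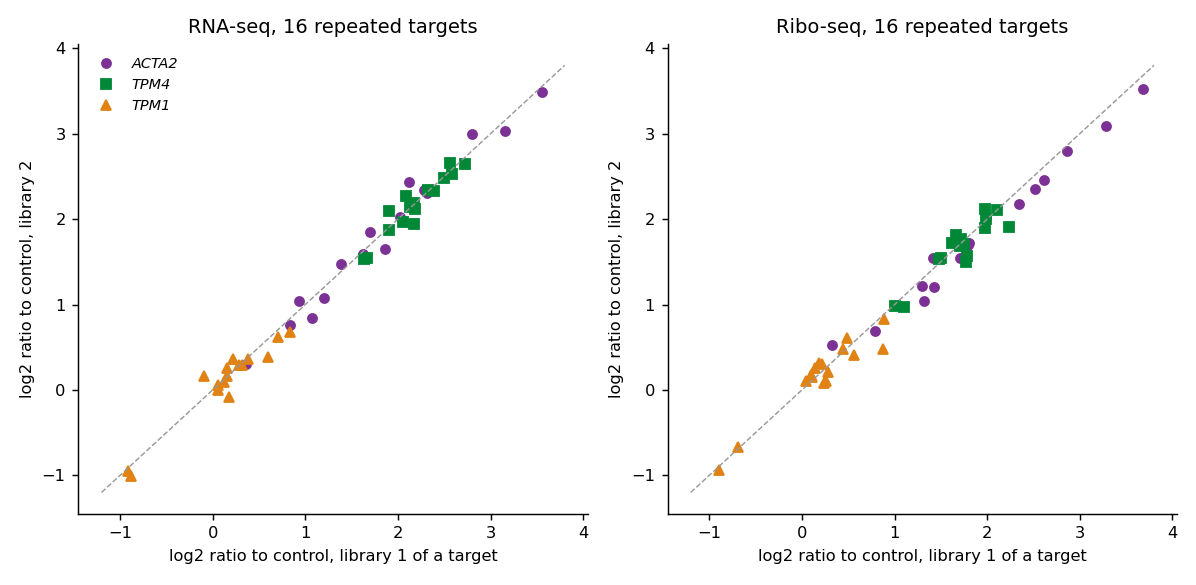
Log2 ratio to control in library 1 (x axis) and library 2 (y axis) of the 16 repeated targets for ACTA2, TPM4 and TPM1, in RNA-seq (left) and Ribo-seq (right); the dashed line marks equal values. Points lie along the line, and ACTA2 is spread from 0.33 to 3.52 in RNA-seq target means while TPM4 lies between 1.58 and 2.68.

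ACTA2 ran parallel to p53 target genes over the knockdowns. A p53 score was the mean log2 CPM of 34 p53 targets, without ACTA2 and FAS, centred on the knockdowns of the title set, with controls not used. ACTA2 had Pearson r = 0.929 and Spearman rho = 0.925 with it over the 75 targets in RNA-seq, and 0.906 and 0.900 in Ribo-seq. These are descriptions, since ACTA2 was selected on this relation, and score and gene come from the same libraries. Without the 2 targets farthest from the median score, RPL11 and RPS27L, r was 0.918. Within the 16 numbered and 59 unnumbered targets it was 0.920 and 0.930. ACTA2 had rank 4 among 15492 genes outside the p53 list in RNA-seq and rank 1 among 12759 in Ribo-seq, and 4.99% and 3.71% of those genes had r over 0.5. It differed by 1.66 on the log2 scale for each unit of the score.

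The lowest p53 scores were those of RPS27L (-1.31), RPL11 (-0.97), RPL22 (-0.95), RPL5 (-0.91) and RPS14 (-0.91), all among the targets with little ACTA2. RPL5 and RPL11 are the ribosomal proteins best known for binding MDM2 when ribosome assembly fails. ACTA2 was at 0.58 for RPL5 and 0.30 for RPL11 in RNA-seq, and at 0.49 and -0.37 in Ribo-seq, on the log2 ratio scale. The highest score was that of RPL8 (0.97), where ACTA2 was 0.28 above the mean of the knockdowns of its title set. RPS18 had a score of 0.73 and ACTA2 at 1.29 above that mean.

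TPM4 did not follow the score in RNA-seq (r = 0.0169, rho = -0.0214), and in Ribo-seq r was -0.339 and rho -0.384. TPM1 and TPM2 lay between, with r of 0.436 and 0.261 in RNA-seq and 0.472 and 0.384 in Ribo-seq. Centred on the run of columns in the table instead of the title set, TPM2 had r = 0.419 in RNA-seq. For TPM1 r was 0.0596 in the 16 numbered and 0.562 in the 59 unnumbered targets. TAGLN (0.138), CNN2 (0.136) and TPM3 (-0.0978) had weak values in RNA-seq. RNA-seq and Ribo-seq levels of 1 gene ran together over the targets, from r = 0.965 for ACTA2 and 0.935 for TPM1 to 0.752 for TPM4 and 0.637 for TPM2. Among the members, ACTA2 and TPM4 had r = -0.0753 in RNA-seq, and TPM3 and TPM4 had 0.361.

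**Figure D5:**
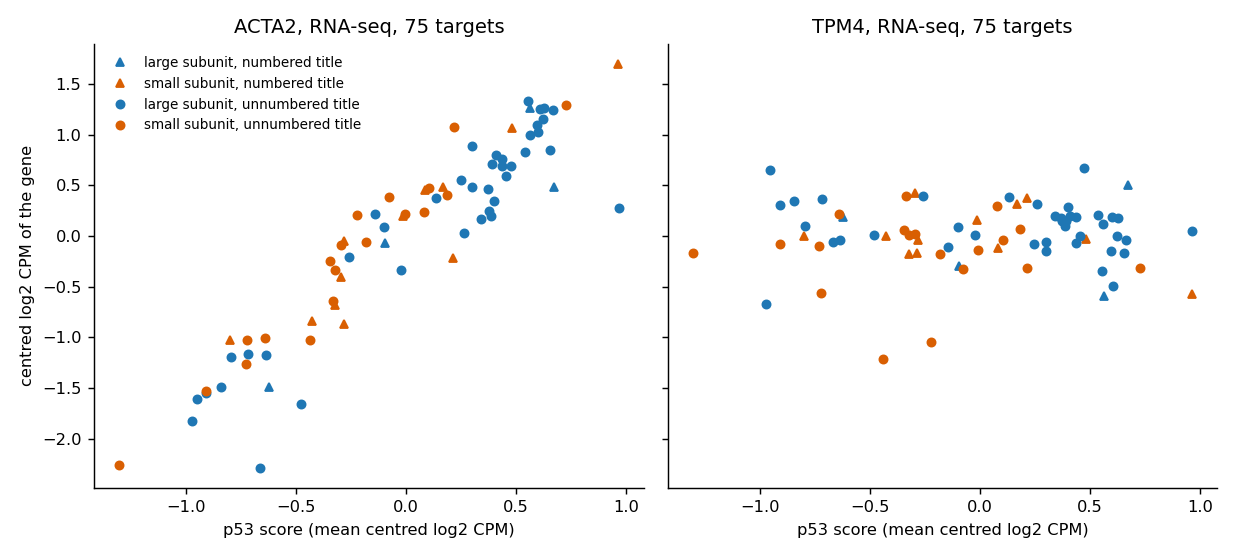
Centred log2 CPM of ACTA2 (left) and TPM4 (right) against the p53 score of each of the 75 targets in RNA-seq; colour gives the subunit and shape the title set, and controls are not used. ACTA2 lies along a rising line (r = 0.929), and TPM4 shows no trend (r = 0.0169).

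The genes most like ACTA2 in centred RNA-seq level over the 75 targets, among 11648 others with a mean of at least 5 CPM, were FDXR (r = 0.942), CYFIP2 (0.931), SPATA18 (0.923), ADAMTS7 (0.911) and BTG2 (0.908). All but ADAMTS7 are in the p53 list. The nearest to TPM4 reached only 0.491 (FUT11), 0.464 (CERS2), 0.460 (SETD7), 0.457 (TMEM50B) and 0.456 (SCARNA7). For TAGLN they were the non-muscle myosin heavy chain MYH9 (0.662), MFGE8 (0.577) and TGFB1I1 (0.573). TPM2 was nearest to the myosin light chain MYL6B (0.838), TIMP1 (0.803) and NDUFB4 (0.782), and TPM1 to OPTN (0.600) and P3H2 (0.600). TPM3 was nearest to SNW1 (0.475), REEP3 (0.467) and MAPK9 (0.446), and CNN2 to SEC14L4 (0.494), RPS4Y1 (0.470) and DAPK3 (0.454). RPS4Y1 is itself 1 of the 75 targets, so its r includes the library of its own siRNA, where CNN2 was lowest. All these r values share libraries and depth and carry no test.

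Large- and small-subunit targets were also compared with each other. ACTA2 and TPM4 were selected on their pattern over these same targets, so for them this difference is not independent of the selection and is given as a description, with no p. Between 44 large- and 31 small-subunit targets in RNA-seq, edgeR's quasi-likelihood test called none of the other members tested. At its threshold of adjusted p under 0.05, 27.2% of all genes were called. TPM4 stood 0.18 ± 0.07 (log2, SE) higher under large-subunit targets. Within the unnumbered titles alone TPM4 stood at 0.24 ± 0.08, and within the numbered ones at -0.034 ± 0.168. ACTA2 stood at 0.39 ± 0.21. TPM1, at 0.15 ± 0.08, had adjusted p = 0.186.

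In Ribo-seq none of the members other than ACTA2 and TPM4 were called, against 16.2% of all genes. Of them CNN2 alone had an unadjusted p under 0.05 by edgeR and by DESeq2, which called none. CNN2 stood at 0.18 ± 0.09 (adjusted p = 0.170, edgeR), ACTA2 at 0.071 ± 0.189 and TPM4 at 0.036 ± 0.087.

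Translation efficiency is the Ribo-seq to RNA-seq ratio. The knockdown-minus-control values were -0.32 ± 0.38 for ACTA2, -0.27 ± 0.15 for TPM4 and 0.38 ± 0.22 for TAGLN, and between -0.14 and 0.026 for the other 4 fitted members. Within the numbered and unnumbered titles alone they were 0.040 and -0.66 for ACTA2, -0.45 and -0.0059 for TPM4, and 0.68 and 0.079 for TAGLN. Between large- and small-subunit targets edgeR's interaction model called none of the members other than ACTA2 and TPM4 (2.53% of all genes). None of them had an unadjusted p under 0.05. Because both assays come from 1 lysate, the ratios per lysate were also fitted with limma. There 13% of all genes and none of these members passed the threshold. ACTA2, given as a description, stood at -0.29 ± 0.07, against -0.32 ± 0.29 in edgeR. The mean log2 ratio of Ribo-seq to RNA-seq CPM of ACTA2 was 0.615 ± 0.260 (SD, n = 44) for large- and 0.804 ± 0.229 (n = 31) for small-subunit targets, and 0.874 ± 0.470 in the 11 controls. Within the unnumbered titles the means were 0.632 and 0.864, and within the numbered ones 0.445 and 0.708. CPM ratios between assays depend on what each table counts, exons or coding sequences, and are compared here only within a gene.

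Of the wider contractile system, a minority of genes passed the test. Of 37 other actomyosin genes tested in RNA-seq, 7 rose and 1 fell, where 13.4% of all genes rose and 17.2% fell. Filamin C (FLNC) rose by 0.71 ± 0.15, MYH9 by 0.45 ± 0.12 and beta-actin (ACTB) by 0.28 ± 0.08, and the filament-capping TMOD1 fell by 0.44 ± 0.13 (adjusted p from 0.000133 to 0.00783, edgeR). In Ribo-seq 7 of 40 rose and 1 fell (all genes 13.2% and 13.5%), among them the kinase of myosin light chain MYLK (0.50 ± 0.14), the light chain MYL6 (0.28 ± 0.08) and talin TLN1 (0.26 ± 0.08). The list's median was 0.096 in RNA-seq and 0.128 in Ribo-seq, beside -0.027 and -0.0036 over all genes. Within the numbered titles alone 3 rose and none fell in RNA-seq, and within the unnumbered ones 1 rose and 1 fell. In Ribo-seq 4 rose within the numbered titles and 0 within the unnumbered ones.

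Of 24 regulators and targets of SRF and its coactivators, 11 rose and 2 fell in RNA-seq, and 8 of 23 rose and 1 fell in Ribo-seq, beside 13.4% and 17.2% of all genes in RNA-seq and 13.2% and 13.5% in Ribo-seq. The SRF list shares ACTB, ACTG1, MYH9, VCL and FLNA with the actomyosin list. FHL2, a cofactor of SRF, rose by 0.71 ± 0.12 and 0.76 ± 0.12 in the 2 assays. The matrix proteins CCN1 and CCN2 rose by 0.67 ± 0.17 each in RNA-seq and by 1.12 ± 0.17 and 0.69 ± 0.19 in Ribo-seq. The coactivator MRTFA rose by 0.35 ± 0.09 and 0.55 ± 0.12. SRF itself stood at 0.077 ± 0.114 in RNA-seq (adjusted p = 0.646). Within the numbered and unnumbered titles alone 4 and 6 of the 24 rose in RNA-seq, and 7 and 3 of the 23 in Ribo-seq.

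Of 20 TGF-beta pathway genes, 5 rose and 2 fell in RNA-seq and 4 of 19 rose in Ribo-seq, beside 13.4%, 17.2% and 13.2% of all genes. Among them was the latent TGF-beta binding protein LTBP2 (0.50 ± 0.11 and 0.59 ± 0.16). The inhibitory SMAD6 and SMAD7 fell by 0.39 ± 0.09 and 0.21 ± 0.08 in RNA-seq. In the p53 list 30 of 34 genes rose in RNA-seq and 31 in Ribo-seq, with 0 lower. Without control 20_2 the RNA-seq numbers of rising genes were 7, 11, 5 and 29 for these 4 lists. Within the numbered and unnumbered titles alone 1 and 2 TGF-beta genes rose in RNA-seq and 1 and 0 in Ribo-seq, and 19 and 30 genes of the p53 list rose in RNA-seq. Between large- and small-subunit targets 9 actomyosin, 7 SRF and 7 TGF-beta genes were called in RNA-seq, beside 27.2% of all genes. Gamma-actin (ACTG1, 0.40, adjusted p = 1.82e-09) and CCN1 (0.54 ± 0.11, adjusted p = 5.26e-05) were higher and the myosin heavy chain MYH10 (-0.42, adjusted p = 7.31e-06) lower under large-subunit targets.

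The 6 smooth muscle markers summed to 6.33 to 13.9 CPM in RNA-seq controls and 10.2 to 43.7 CPM in knockdowns. Most of it was SYNPO2, which rose by 0.74 ± 0.13 (adjusted p = 8.40e-06), and MYOCD, the myocardin coactivator of SRF, which rose by 0.76 ± 0.24 (adjusted p = 0.0111). In Ribo-seq SYNPO2 rose by 0.86 ± 0.18 (adjusted p = 9.36e-05), and MYOCD stood at 0.74 ± 0.32 (adjusted p = 0.0715). Within the numbered titles alone 1 of the pair passed the test in RNA-seq. The 7 fibroblast markers summed to 10.7 to 26.3 CPM and 5.08 to 52.8 CPM, nearly all of it COL1A1, a collagen chain. COL1A1 stood at -0.055 ± 0.210 for knockdowns against controls (adjusted p = 0.868) and was lower under large- than small-subunit targets, by -0.68 ± 0.13 in RNA-seq (adjusted p = 5.80e-05) and -0.81 ± 0.14 in Ribo-seq (adjusted p = 1.05e-05). In bulk samples fewer cells of a type and less RNA per cell cannot be told apart, and the part of these marker levels in the results was not tested.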

How the data were processed

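Read counts per Ensembl gene for 102 RNA-seq and 102 Ribo-seq libraries were used as the authors deposited them, over exons and over coding sequences per the file headers, neither normalized nor pooled. The submitters' processing notes name GRCh38, STAR 2.6.1, cutadapt 1.8.1 and bcl2fastq 2.20.0.422. Which program counted reads, with which strand setting and annotation, is not given in the sources used here. Columns were matched to samples by name, 0 stayed unmatched, and 2 control columns (21_1 and 21_2) were matched to their group only. RPS15 RNA-seq columns carry a sample number that differs from their titles.

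Tests covered genes that reached 1 CPM in 11 or more libraries (15526 in RNA-seq, 12793 in Ribo-seq, 12480 in both) in R 4.3.3 with edgeR 4.0.16 (TMM scaling, quasi-likelihood test, Benjamini-Hochberg adjustment over all of them, threshold 0.05), with the title set as a term. Subunits were compared on counts summed per target, with controls as a group of their own. Translation efficiency was the assay by group interaction, and limma 3.58.1 on ratios per lysate (prior count 2). DESeq2 1.42.0 was an alternative. Both assays share a lysate by protocol; deviations of the 2 libraries of a lysate had a median r of 0.214 over 43 lysates. Ratios use log2 of CPM plus 0.5. The scripts were tested on simulated data. Libraries of 1 group differed by more than sampling noise (chi-square per degree of freedom at least 3.47). This does not show that the 2 libraries of a target are independent. Such libraries were counted separately in the fits of knockdowns against controls, where a target with 2 libraries weighs more than a target with 1. For ACTA2 in RNA-seq the SD was 0.102 within and 0.886 between repeated targets. SEs and p-values of these fits may therefore be too small. Intervals cover 95%.

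The members, lists and alternatives were chosen with earlier results of these data known. Named are the members, the genes most like them (5 for ACTA2 and TPM4, 3 for others), the genes separated in both assays, the 4 genes called with the smallest p of each list, and the neighbours of ACTA2 and TPM4; other genes were named after their values were seen. A few items that fall under this rule are not reported here.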

Additional observations from a re-analysis of the deposited data

Results flagged for a closer look

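In the 6 controls with numbered titles, the Ribo-seq level of MYL9 in control 21_2 was 0.711 CPM, against 0.194 to 0.353 CPM in the others, a gap to its nearest neighbour that is large for the group's range. It was the 1 library so marked among 32 groups of controls examined, and chance marks about 1 group in 20. The level rests on 23 counts.

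The translation efficiency of ACTA2 stood -0.29 apart (log2, large minus small) between large- and small-subunit targets in limma's fit of ratios per lysate. In edgeR's interaction model, which does not pair the assays, the difference was -0.32 ± 0.29. ACTA2 was selected on its pattern over these targets, so this is a description.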

How the results depend on the processing

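The knockdown-minus-control values of the members moved by less than 1 SD of the controls in 392 of 396 values under the alternatives. The exceptions were ACTA2 translation efficiency, 0.040 in the numbered and -0.66 in the unnumbered titles alone, that of TPM4, -0.0059 in the unnumbered ones, and MYL9 in Ribo-seq (0.70 in the numbered titles). Leaving out each control in turn gave 2.25 to 2.36 (RNA-seq), 1.97 to 2.05 (Ribo-seq) and -0.41 to -0.26 (translation efficiency) for ACTA2, and 2.11 to 2.17, 1.85 to 1.94 and -0.31 to -0.22 for TPM4. The r of TPM4 with the p53 score was 0.0169 in RNA-seq and -0.339 in Ribo-seq. Within the numbered titles alone it was -0.226 in RNA-seq and -0.552 in Ribo-seq, and within the unnumbered ones 0.0705 and -0.299. Between subunits, and apart from ACTA2 and TPM4, RNA-seq called TPM1 and TPM2 without the title set term (all genes: 2584 higher and 2934 lower of 15526). It called none of these other members in the unnumbered titles or with DESeq2, and limma called none of them for translation efficiency. On the 16 repeated targets, the fit with the replicate number as a block and the unpaired fit each called 1 member in Ribo-seq (TPM2, adjusted p = 0.0495 and 0.0452) and 0 in RNA-seq. Over all genes the blocked fit called 906 higher and 869 lower of 12793 in Ribo-seq, and 1134 and 1140 of 15526 in RNA-seq. The unpaired fit called 934 and 902, and 1210 and 1230. Both fits count the 2 libraries of a target as separate replicates. With counts summed per target within the numbered titles, which hold the same 16 targets, TPM2 was not called (adjusted p = 0.294, edgeR). Libraries of 2 targets with the same number had a median r of -0.0646 in RNA-seq and 0.0957 in Ribo-seq over 120 pairs. The range was -0.844 to 0.763 and -0.574 to 0.683, so whether some of them are paired by number cannot be told from these values. Fewer genes were called within single title sets, 994 higher and 886 lower (numbered) and 1189 and 900 (unnumbered) against 2073 and 2671 in RNA-seq, 1234 and 1150, and 516 and 246, against 1685 and 1728 in Ribo-seq. The subunit calls fell to 70 and 12 in RNA-seq and 78 and 73 in Ribo-seq within the numbered titles, against 2113 and 2104, and 917 and 1154. For translation efficiency, limma called 639 and 984 between subunits against 54 and 262, and 194 and 296 for knockdowns against 41 and 3. Terms and references by the run of columns in the tables were added after the data were seen and changed none of the member calls. Depth limits MYL9 most among the members. TAGLN also had as few as 44 counts in a knockdown library of either assay.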

Other observations

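TPM2 differed between the 2 title sets in the controls themselves. Its RNA-seq level was 130 ± 25.9 CPM (SD, n = 6) in the numbered and 75.2 ± 12.9 CPM (n = 5) in the unnumbered controls, and its Ribo-seq level 308 ± 18.5 and 268 ± 15.3 CPM. In the controls the title set cannot be told apart from the run of columns, since all unnumbered controls are in run 2. The median log2 ratio of TPM2 to control over the 75 targets was 0.43 against controls of the same set and 0.16 against all 11 controls in RNA-seq. For TPM4 the controls were at 140.4 ± 19.8 and 167 ± 14.4 CPM in RNA-seq and at 39.2 ± 4.68 and 31.8 ± 6.00 CPM in Ribo-seq, in opposite order in the 2 assays.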
